A study of Mus musculus with 2 samples.

Results

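The major histocompatibility complex (MHC) of the mouse was examined for binding of Tle3 in bone marrow progenitor cells. The members were the protein-coding genes in chr17:33950000-36200000 of the mm9 build, from the genes just before H2-K1 through class II and class III to the Q and T class I genes. This window of 2.25 Mb held 135 of 21631 protein-coding genes and 41 of 5136 peaks. The window was chosen because earlier results of this list had shown many peaks in part of it, so its peak number is a description and not a finding.

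Chromatin immunoprecipitation and sequencing had been done on C57BL/6 mice, wild type and 8 to 10 weeks old, whose bone marrow was sorted for cells without lineage markers and with cKit, the receptor for stem cell factor. The Tle3 antibody gave 1 library, and there was 1 control library, called normal IgG in some labels and input in others. The labels call the cells hematopoietic progenitors in one field and T cells in another, and a peak list holds no expression values to check the cell type. With 1 library per antibody and no read totals, no replicate error and no depth can be given, and every comparison below is a description without a test over animals.

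Tle3 is a corepressor of the Groucho family. It does not bind DNA itself and is recruited by DNA-binding partners, among them HES, RUNX and TCF/LEF factors. Class I genes of the MHC encode the heavy chains that show peptides from inside the cell to CD8 T cells, and class II genes encode the chains that show peptides from outside the cell to CD4 T cells. Between them lies class III, a gene-dense stretch with complement, tumour necrosis factor and heat shock genes and many housekeeping and chromatin genes.

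Gene positions came from a RefSeq table of GRCm38.p6, which was taken to differ from mm9 in this part of chromosome 17 by a constant offset of about 136.95 kb. At this offset, 21 of the 41 peak midpoints (51.2%) lay within 1 kb of a gene start, against a median of 6 at offsets more than 5 kb away and at most 13. Peaks of the same chromosome outside the window, between 15 and 47 Mb, gave a best offset of 136.6 to 136.75 kb, with 58 of 109 midpoints (53.2%) at a start at 136.95 kb. No peak of the window was used for this. The stretch was, however, bounded by bins whose peaks matched starts at 136.95 kb, so its best offset and share are not independent of that offset. Not every bin between them matched. Outside the window, the 4 Mb bins starting at 35 and 39 Mb had 1 of 4 and 0 of 2 midpoints at a start. The offset cannot be shown in those bins, though their genes count in the background. By subregion, 5 of 9 midpoints lay at a start in the K region, 9 of 17 in class III and 5 of 9 in the class I D, Q and T region. Shifting the offset by 20 kb either way left at most 3, 2 and 1 of them. In class II 2 of 6 lay at a start, against 1 and 0 after the shifts, so the match cannot be shown there on its own. Against either end of the genes, 22 of the 41 midpoints matched at 136.95 kb. There the most was 25 at 137.35 to 138.0 kb, against up to 19 at other offsets, so gene ends placed the offset less sharply than starts. Distances to starts are therefore uncertain by part of a kb, and distances to gene ends by about 1 kb. For the 20 members matched by either end, the distance given is that of the nearer end, which may not be the start. Their true starts can therefore lie farther from a peak by up to the length of the gene. For Vars the ends lay 0.06 and 15.37 kb from the nearest peak. Because the offset was chosen on gene starts, the share of peaks at starts is a check of the offset. Peak positions are those of the list, in mm9.

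**Figure D1:**
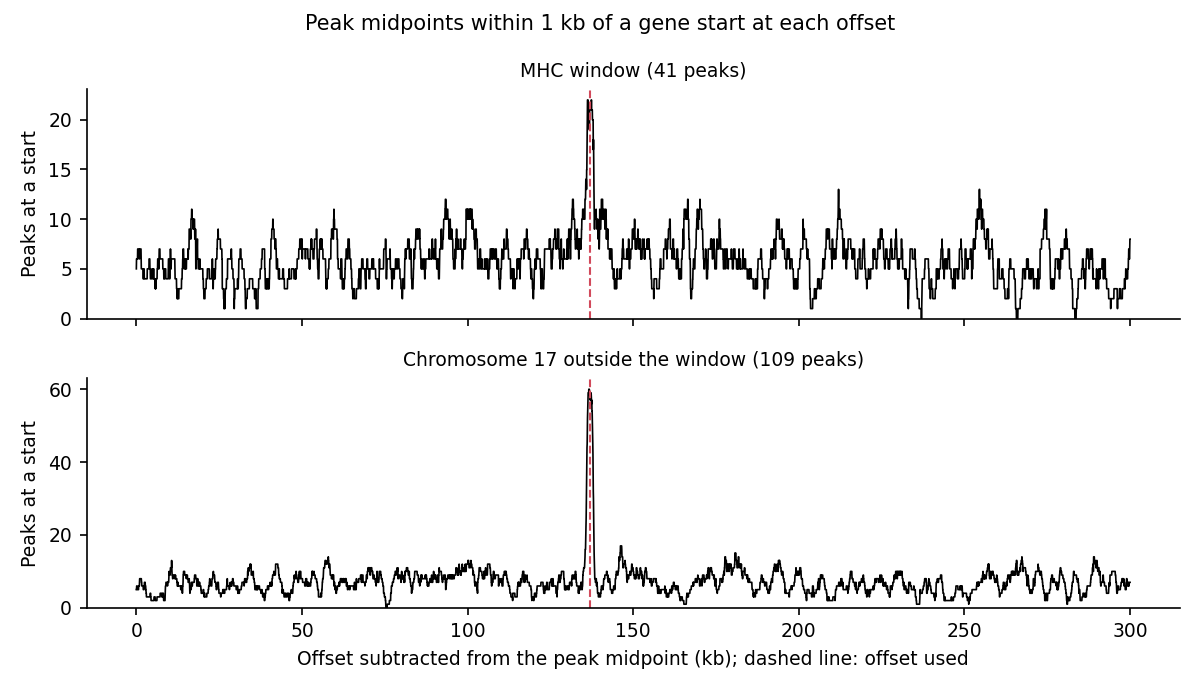
Number of peak midpoints within 1 kb of a protein-coding gene start (vertical axis) for each offset in kb subtracted from the mm9 position (horizontal axis), for the 41 peaks of the MHC window (top) and the 109 peaks of chromosome 17 outside it (bottom). Both curves peak close to the dashed line at 136.95 kb, where 21 and 58 midpoints matched. The maximum of 22 was reached at offsets between 136.2 and 137.4 kb, though not at all of them, and that of 60 between 136.6 and 136.75 kb.

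The promoters of 7 members are shown because they span what the peaks had in common and where they did not. Each is the 250 bases before the RefSeq start in GRCm38.p6, on the plus strand of chromosome 17, and capitals mark each CG dinucleotide. Pbx2 (chr17:34592009-34592258), Ehmt2 (chr17:34898224-34898473) and Zbtb12 (chr17:34894309-34894558) had a peak at the start and many CG dinucleotides. Gpsm3 (chr17:34589556-34589805) and the class I gene H2-Q4 (chr17:35379367-35379616) had a peak and few of them. The class I gene H2-D1 (chr17:35262844-35263093) and the class II gene H2-Eb1 (chr17:34305617-34305866) had no peak at the start.
Pbx2: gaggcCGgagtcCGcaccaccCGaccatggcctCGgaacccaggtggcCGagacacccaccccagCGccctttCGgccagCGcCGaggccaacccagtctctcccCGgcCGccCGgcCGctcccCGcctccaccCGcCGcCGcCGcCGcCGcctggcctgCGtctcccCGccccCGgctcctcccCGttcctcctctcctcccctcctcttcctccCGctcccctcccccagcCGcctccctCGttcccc
Ehmt2: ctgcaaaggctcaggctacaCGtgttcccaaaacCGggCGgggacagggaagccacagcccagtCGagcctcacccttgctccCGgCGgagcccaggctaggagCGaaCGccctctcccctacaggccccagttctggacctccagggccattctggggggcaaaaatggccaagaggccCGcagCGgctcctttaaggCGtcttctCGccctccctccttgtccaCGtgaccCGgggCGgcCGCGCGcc
Zbtb12: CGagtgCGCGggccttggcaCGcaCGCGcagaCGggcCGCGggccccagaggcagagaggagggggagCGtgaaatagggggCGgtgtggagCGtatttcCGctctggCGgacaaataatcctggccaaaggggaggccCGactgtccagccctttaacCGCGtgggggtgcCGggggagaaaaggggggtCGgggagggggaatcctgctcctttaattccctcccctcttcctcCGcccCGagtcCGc
Gpsm3: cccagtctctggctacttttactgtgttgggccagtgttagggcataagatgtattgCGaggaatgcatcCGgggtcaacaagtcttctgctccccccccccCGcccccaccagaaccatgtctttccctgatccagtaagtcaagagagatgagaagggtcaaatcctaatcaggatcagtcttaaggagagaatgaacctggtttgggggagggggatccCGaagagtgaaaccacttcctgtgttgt
H2-Q4: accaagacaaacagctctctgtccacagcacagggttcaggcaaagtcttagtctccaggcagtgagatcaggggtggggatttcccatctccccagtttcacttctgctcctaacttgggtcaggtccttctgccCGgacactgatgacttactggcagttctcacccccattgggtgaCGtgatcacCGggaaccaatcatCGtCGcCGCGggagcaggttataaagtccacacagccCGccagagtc
H2-D1: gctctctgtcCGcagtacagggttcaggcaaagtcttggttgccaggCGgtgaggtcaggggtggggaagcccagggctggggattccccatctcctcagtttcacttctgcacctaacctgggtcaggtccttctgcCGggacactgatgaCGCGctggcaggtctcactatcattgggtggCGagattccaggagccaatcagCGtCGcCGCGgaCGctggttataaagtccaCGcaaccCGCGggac
H2-Eb1: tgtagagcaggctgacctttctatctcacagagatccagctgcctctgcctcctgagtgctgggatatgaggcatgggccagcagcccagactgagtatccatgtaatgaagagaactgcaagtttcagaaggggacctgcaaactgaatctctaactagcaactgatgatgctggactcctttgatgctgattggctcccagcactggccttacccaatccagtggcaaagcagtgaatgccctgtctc

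The CG dinucleotide occurred 27 times in the 250 bases before the Pbx2 start, 22 times before Zbtb12, 18 times before Ehmt2, 8 times before H2-Q4, 4 times before Gpsm3, 14 times before H2-D1 and 0 times before H2-Eb1.

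Tle3 peaks of the MHC lay at the starts of genes such as Rgl2, Rxrb, Brd2, Pbx2 and Flot1. Of the 20 class I and class II chain genes in the window, listed by their H2 symbols, only H2-Q4 had one. Their exact intervals, 0.23 to 41.3% for class I and up to 33.6% for class II, include the backgrounds below. Nothing is therefore read from this count. Of the 135 members, 22 (16.3%, 95% exact interval 10.5 to 23.6%, counting error only) had a peak midpoint within 1 kb of a start, through 21 peaks, since neighbours such as Slc39a7 and Rxrb share a peak. The background was 11.0% of 555 genes in the stretch of chromosome 17 around the window, 13.2% of 461 genes there without olfactory and vomeronasal receptors, and 11.5% of 679 genes on chromosome 16, where no offset was applied. No check of the match of the builds on chromosome 16 is given here, and a mismatch there would lower its share. The interval of the members includes all of these backgrounds, so the share of members with a peak is not a result about the MHC. A further 10 members had a peak inside the span of the gene but none at a start, and the median distance from a member to its nearest peak was 18.8 kb.

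**Figure D2:**
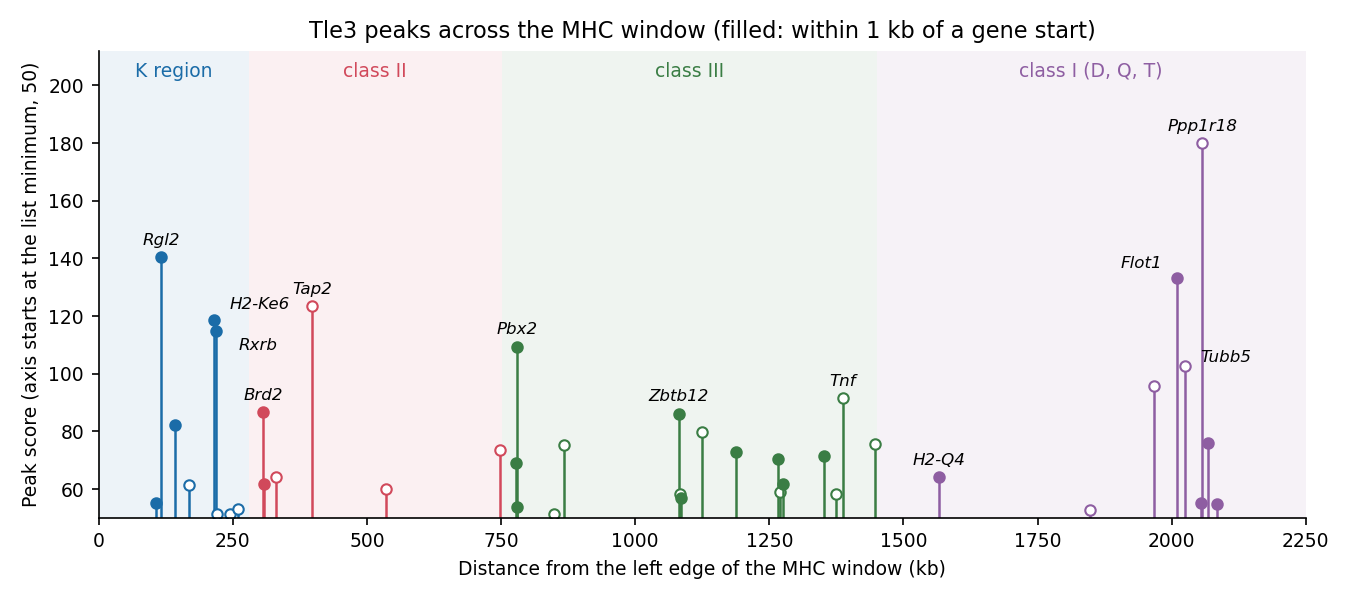
Score of each of the 41 Tle3 peaks (vertical axis, starting at the list minimum of 50) against its distance in kb from the left edge of the MHC window (horizontal axis), with the 4 subregions shaded and filled circles for peaks within 1 kb of a gene start. The highest peak, 179.87, lies inside Ppp1r18 at the right, and long intervals without a peak cross class II, class III and the class I Q genes.

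Among 11 class I heavy chain genes in the window, listed by their H2 symbols, 1 had a peak at its start. This was H2-Q4, a class I gene of the Q group (chr17:35516395-35516931, score 64.04, midpoint 0.1 kb from the start). The other 10 were H2-K1, H2-D1, H2-Q1, H2-Q2, H2-Q6, H2-Q7, H2-Q10, H2-T24, H2-T23 and H2-T22. The classical class I genes H2-K1 and H2-D1 had their nearest peaks 19.58 and 3.86 kb away (chr17:34117446-34117966, score 61.46, and chr17:35395876-35396501, score 75.48). The share in class I, 9.09% (0.23 to 41.3%), rests on 1 gene and includes the backgrounds of 11.0 and 13.2%.

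Some class I promoters are similar to each other in sequence, which can limit where short reads can be placed. Over the 300 bases around the start, H2-Q4 was 83.3% identical to H2-Q6, 79.7% to H2-D1, 77.7% to H2-Q10, 76.7% to H2-Q7, 72.0% to H2-K1 and 70.7% to H2-Q2, after global alignment with gaps. It was 59.0% identical to H2-T23 and 57.7% to H2-T22, and those 2 promoters were 55.7 to 60.3% identical to every class I promoter compared. The closest pair of the 9 class I promoters compared was H2-D1 and H2-Q10, at 85.3%. How reads with several matches were placed is not given in the sources used here, and its part in the peak at H2-Q4, or in the lack of peaks at the other class I genes, was not tested.

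No class II chain gene had a peak at its start. The 9 genes of this list in the window were H2-Aa and H2-Ab1, H2-Eb1 and H2-Eb2, which encode chains shown at the cell surface, and H2-DMa, H2-DMb1, H2-DMb2, H2-Oa and H2-Ob, whose products control peptide loading. A count of 0 of 9 allows a share of up to 33.6% by the exact interval, so it cannot be told apart from the background. The nearest peak to any of them was 1.84 kb from the H2-DMa start (chr17:34257620-34258262, score 61.65). That peak lies inside the RefSeq span of H2-DMa but upstream of the H2-DMa starts used here. It also lies at a start of the neighbouring gene Brd2, which it overlaps. A peak of score 64.05 lay 2.08 kb from the H2-DMb2 start, between genes (chr17:34279830-34280398). The 5 genes H2-Ob, H2-Ab1, H2-Aa, H2-Eb1 and H2-Eb2 all fell in an interval of 136.2 kb without a peak, from 34348174 to 34484421.

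Among the 5 antigen processing genes, 1 had a peak at the start (exact interval 0.505 to 71.6%, which includes the 11.0% background). This was Tapbp, which encodes tapasin, the factor that holds class I molecules at the peptide transporter (chr17:34056323-34056860, score 55.0). Tap2, a subunit of that transporter, held a peak inside the gene, 5.52 kb from its nearer end (chr17:34347335-34348173), with a score of 123.3 that 84.7% of the list fell below. Psmb9 and Tap1, an immunoproteasome subunit and the other transporter subunit, are transcribed away from each other from starts 226 bases apart, and no peak lay within 1 kb of either. Psmb8, another immunoproteasome subunit, also had none.

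The chromatin and transcription genes were the list with the most peaks at starts. Of 18 such genes, 5 had one (27.8%, 9.69 to 53.5%), an interval that includes the backgrounds. Pbx2, a homeodomain partner of HOX proteins, had the strongest of these in class III, a peak of 1041 bp with a score of 109.31 and its midpoint 0.02 kb from the start (chr17:34728666-34729706). A second peak of score 53.74 followed it after 91 bases (chr17:34729798-34730390), and merging peaks within 1 kb joined them into 1 region. Rxrb, the retinoid X receptor beta, shared a peak of 1561 bp, the widest of the window, with the zinc transporter gene Slc39a7 (chr17:34168171-34169731, score 114.76). The starts of these genes are 122 bases apart and point away from each other.

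Brd2, which encodes a bromodomain protein that reads acetylated histones, had 2 peaks at its starts, of scores 86.66 and 61.65 (chr17:34256049-34257096 and chr17:34257620-34258262). RefSeq gives Brd2 3 starts, and the peaks lay 0.28 and 0.76 kb from 2 of them. The most upstream start, 225 bases from that of H2-DMa, had its nearest peak 1.62 kb away. Brd2 was the only gene of the class II subregion with a peak at a start. Zbtb12, a zinc finger gene, and Ehmt2, a histone lysine methyltransferase, lie next to each other in class III. Zbtb12 had a peak of score 86.17 at 0.14 kb from its start and a second of 58.19 inside the gene, and the peak at Ehmt2, of score 56.81, was centred 0.01 kb from a start. The 13 genes of this list without a peak at a start were Daxx, Zbtb22, Ring1, Notch4, Atf6b, Nelfe, Bag6, Nfkbil1, Ddx39b, Pou5f1, Tcf19, Gtf2h4 and Mdc1.

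The cytokine, complement and heat shock lists had 0 of 3 members each with a peak at a start. Each count allows a share of up to 70.8% and cannot be told apart from the background of 11.0 to 13.2%. The cytokine genes Tnf, Lta and Ltb lie side by side, and a peak of score 91.53 (chr17:35337130-35337819) fell inside Tnf, 1.48 kb from the Tnf start, 4.83 kb from that of Lta and 6.02 kb from that of Ltb. A weaker peak of score 58.25 lay inside Lst1, a leukocyte gene next to them (chr17:35323457-35323998). The complement genes C4b, Cfb and C2, matched by either end, had their nearest peaks 12.6 to 46.8 kb from the nearer end. They lie with Cyp21a1, Stk19, Dxo, Skiv2l and Nelfe in an interval of 212.9 kb without a peak, between Tnxb and Zbtb12 (34818484 to 35031400). The heat shock genes Hspa1a, Hspa1b and Hspa1l had their nearest peaks 21.0 to 28.8 kb away. Hspa1a and Hspa1b are near-identical copies, as are the C4 and Cyp21 genes and their duplicates, and the treatment of reads that match several copies was not tested here.

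For the remaining lists the intervals were wide and included the background of 11.0 to 13.2%, so their shares cannot be told apart from it. The receptor and butyrophilin genes Btnl1, Btnl2, Btnl4, Btnl6, Ddr1 and Ager had 0 of 6 with a peak at a start (up to 45.9%), and their nearest peaks were 4.71 to 85.5 kb away. Among the lymphocyte antigen 6 genes 1 of 6 (16.7%, 0.421 to 64.1%), Ly6g6e, counted as having a peak, 0.88 kb from an end of the gene (chr17:35216418-35216850, score 70.26). Its strand was not taken from a promoter entry, so the end may be the 3′ one, and the same peak lies inside the neighbour Ly6g6d. A peak of score 59.13 lay inside Ly6g6f.

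Of the 71 members on no list, 14 had a peak at a start (19.7%, 11.2 to 30.9%). The interval includes the backgrounds of 11.5% and 13.2% and starts just above that of 11.0%. Neighbouring genes share peaks and the window was chosen for its many peaks, so nothing is read from this share. In the K region the members with a peak included Rgl2, a guanine nucleotide exchange factor of Ral, whose peak of score 140.37 was centred on the start (chr17:34066223-34067462). They also included H2-Ke6, a hydroxysteroid dehydrogenase gene with a peak of 118.67 (chr17:34164023-34164929), and the pair Rps18 and Vps52, a ribosomal protein and a vesicle tethering subunit, whose starts 135 bases apart shared a peak of 82.32. In class III they were Gpsm3, a regulator of G protein signalling in leukocytes (69.11), Abhd16a, a lipase gene (61.74), Prrc2a, an RNA-binding protein gene (71.45), and the valyl-tRNA synthetase gene Vars with its neighbour D17H6S56E-5 (72.8, shared). In the class I D, Q and T region they were Flot1, which encodes flotillin (133.07), Ppp1r18, a regulator of protein phosphatase (55.03), the RNA helicase gene Dhx16 (76.1) and 2310061I04Rik (54.68). For Flot1, Vars, Ly6g6e and 2310061I04Rik either end of the gene was accepted as the start.

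The strongest peak of the window was not at a start. It lay inside Ppp1r18, 3.9 kb from its nearest start, with a score of 179.87 and a width of 741 bp (chr17:36007092-36007832), and 94.2% of the list scored lower. After it came the peaks at Rgl2 (140.37), Flot1 (133.07), inside Tap2 (123.3), at H2-Ke6 (118.67), at Slc39a7 and Rxrb (114.76), at Pbx2 (109.31) and inside the beta tubulin gene Tubb5, 1.22 kb from its start (102.49, chr17:35973729-35974336). These 8 alone reached a score of 100, or 19.5% of the 41, against 24.5% of the whole list. The ninth, of 95.71, lay between genes, 41.15 kb from the start of Ier3 (chr17:35917128-35917893), and the tenth was that inside Tnf. The peak inside Ppp1r18 ranked 299 of 5136.

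Scores in the MHC had a median close to that of the whole list and a lower upper quartile. The median was 70.26 with quartiles of 58.2 and 86.7, against a median of 68.82 with quartiles of 56.7 and 99.2 over all peaks, and 22 of the 41 scored above the list median. The median width was 593 bp against 657 bp, and 5 peaks (12.2%) were wider than 1000 bp, against 11.1% of the list. The score is the caller's measure of confidence in a peak, the negative log10 of a p-value times 10, and is neither a read count nor an occupancy.

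Peak density was listed for each subregion by length and by gene number. The K region, from the window edge to the gene before H2-Oa, held 9 peaks in 279.3 kb, or 32.2 per Mb. Class III, from Notch4 to Ddx39b, held 17 in 698.8 kb, or 24.3 per Mb. Class II, from H2-Oa to the gene before Notch4, held 6 in 471.9 kb, or 12.7 per Mb, and the class I D, Q and T region held 9 in 800 kb, or 11.3 per Mb. The stretch of chromosome 17 around the window had 3.66 per Mb. Set against gene number the subregions lay closer together, at 42.9 peaks per 100 genes in the K region, 31.6 in class II, 29.8 in class III and 23.7 in the class I D, Q and T region, against 19.6 in the stretch and 24.7 over all autosomes. The peak upstream of Notch4 and that upstream of H2-D1 lie 2.88 and 3.86 kb before those boundary genes, and are counted in class II and class III by position.

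The share of genes with a peak at a start was 33.3% in the K region (7 of 21, 14.6 to 57.0%), 5.26% in class II (1 of 19, 0.133 to 26.0%), 15.8% in class III (9 of 57, 7.48 to 27.9%) and 13.2% in the class I D, Q and T region (5 of 38, 4.41 to 28.1%). The intervals of the 4 subregions overlap. The K region is part of a window chosen for its many peaks, so nothing is read from its share against the backgrounds of 11.0 and 13.2%. Those backgrounds come from a stretch set with its matches in view. The genes of the K region are not independent, since 5 peaks account for its 7 genes. No test of the difference between subregions was made, as there is 1 library per antibody and neighbouring genes share peaks.

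**Figure D3:**
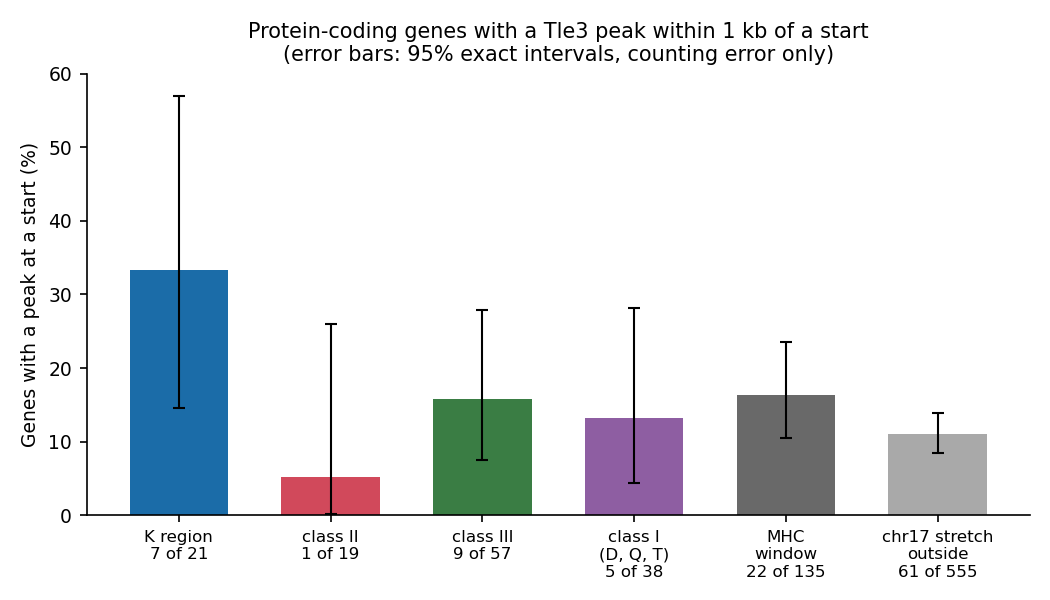
Percent of protein-coding genes with a Tle3 peak midpoint within 1 kb of a start (vertical axis, bars) in each MHC subregion, the whole window and the stretch of chromosome 17 around it, with 95% exact intervals and counts under each bar. The bars run from 5.26% in class II to 33.3% in the K region, and the intervals of the 4 subregions overlap.

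Scores in the K region ran from 51.19 to 140.37. The scores 140.37, 118.67, 114.76 and 82.32 belonged to the starts of Rgl2, H2-Ke6, Slc39a7 with Rxrb, and Rps18 with Vps52, and the other 5 scored between 51.19 and 61.46. Among those 5 were the peak at the Tapbp start (55.0), peaks inside the collagen gene Col11a2 (51.19) and inside Rxrb (51.39), and 1 between genes 20.03 kb from H2-Oa (53.06). In class III, 16 of 17 peaks scored under 100, with a median of 70.26, and only that at Pbx2 scored more. In class II the median was 68.72, and in the class I D, Q and T region 76.1 with the widest range, 52.71 to 179.87. The medians, from 61.46 in the K region to 76.1, all lie within the quartiles of the whole list.

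**Figure D4:**
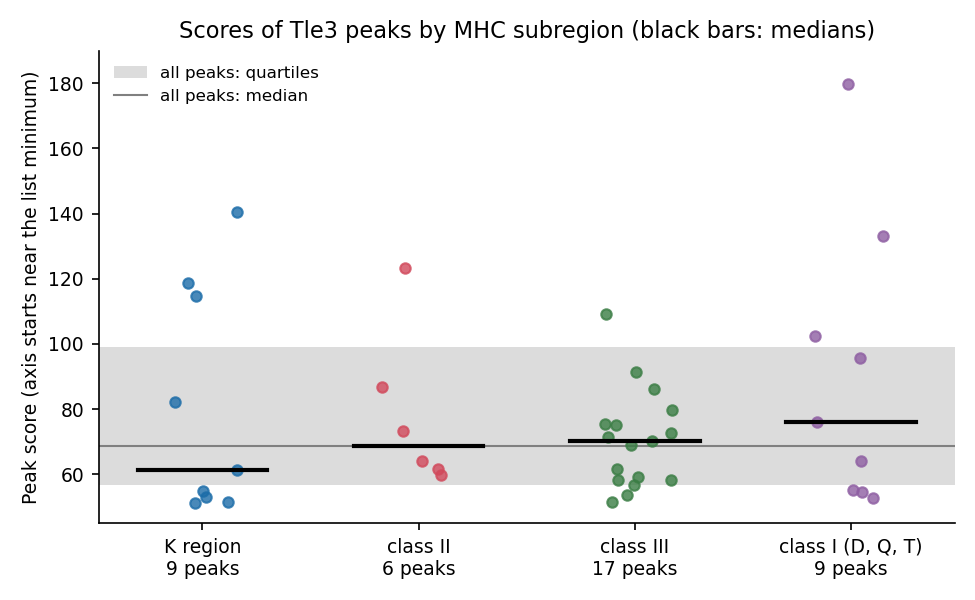
Score of each Tle3 peak (vertical axis, dots) by MHC subregion, with black bars for subregion medians and a grey line and band for the median (68.82) and quartiles (56.7 and 99.2) of all 5136 peaks. The subregion medians lie between 61.46 and 76.1, inside the band, and 8 dots lie at 100 or above.

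By position in genes, 21 of the 41 MHC peaks lay at a start, 12 inside a gene away from a start (29.3%) and 8 between genes (19.5%). In the stretch around the window these shares were 53.2, 19.3 and 27.5%. Peaks at starts numbered 5 of 9 in the K region, 2 of 6 in class II, 9 of 17 in class III and 5 of 9 in the class I D, Q and T region. Class II had 3 of its 6 peaks between genes. The extracellular matrix gene Tnxb held 2 of the peaks inside genes (51.35 and 75.17), and Vars2, a tRNA synthetase gene, held 1 (52.71).

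MHC peaks lay close together, in a window chosen where peaks are dense. Another peak lay within 10 kb of 19 of the 41 (46.3%), against 22.2% in the whole list. The 19 formed 7 groups, 2 of them pairs and 5 of 3 peaks. The shortest group of 3 took up 3.67 kb at Gpsm3 and Pbx2, and others lay at Zbtb12 and Ehmt2 (4.29 kb), H2-Ke6 and Rxrb (6.93 kb), the Ly6g6 genes and Abhd16a (10.2 kb) and Ppp1r18 and Dhx16 (13.7 kb). Long intervals without a peak separated these groups. The longest, 280.4 kb from 35516932 to 35797321, ran from H2-Q4 to Vars2 and held the starts of 12 members, among them H2-Q6, H2-Q7, H2-Q10, Pou5f1 and Cdsn. An interval of 212.9 kb before Notch4 (34485179 to 34698035) held the 5 genes Btnl2, Btnl1, BC051142, Btnl4 and Btnl6. Another of 119.9 kb held H2-D1, H2-Q1 and H2-Q2.

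Promoter windows with a peak had a higher median CpG ratio than those without, given here without a test. RefSeq promoter windows of 250 bases before and 50 after the start were at hand for 115 of the 135 members, as 153 windows, some of which overlap within a gene. The ratio of observed to expected CpG had a median of 0.83 in the 25 windows with a peak within 1 kb and 0.52 in the 128 without. It exceeded 0.6 in 19 of 25 (76.0%) and in 52 of 128 (40.6%). Over all 21045 protein-coding windows the share was 48.1%. In the stretch around the MHC it was 81.7% of 60 windows with a peak and 39.0% of 515 without, so the same contrast was present there. G + C content had a median of 64.7% with a peak and 58.0% without.

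Class II stood low in this measure. Only 3 of its 20 promoter windows (15.0%) exceeded a ratio of 0.6, against 79.3% of 29 in the K region, 41.4% of 58 in class III and 45.7% of 46 in the class I D, Q and T region. Its median ratio was 0.17, and that of H2-Eb1 was 0. The exceptions to the CpG-rich pattern were the 6 windows with a peak and a ratio of 0.6 or less, those of Gpsm3 (0.24), H2-Q4 (0.39), 1 of Brd2 (0.47), H2-Ke6 (0.52), Tapbp (0.56) and Rgl2 (0.59). H2-D1, without a peak at the start, had 0.65.

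**Figure D5:**
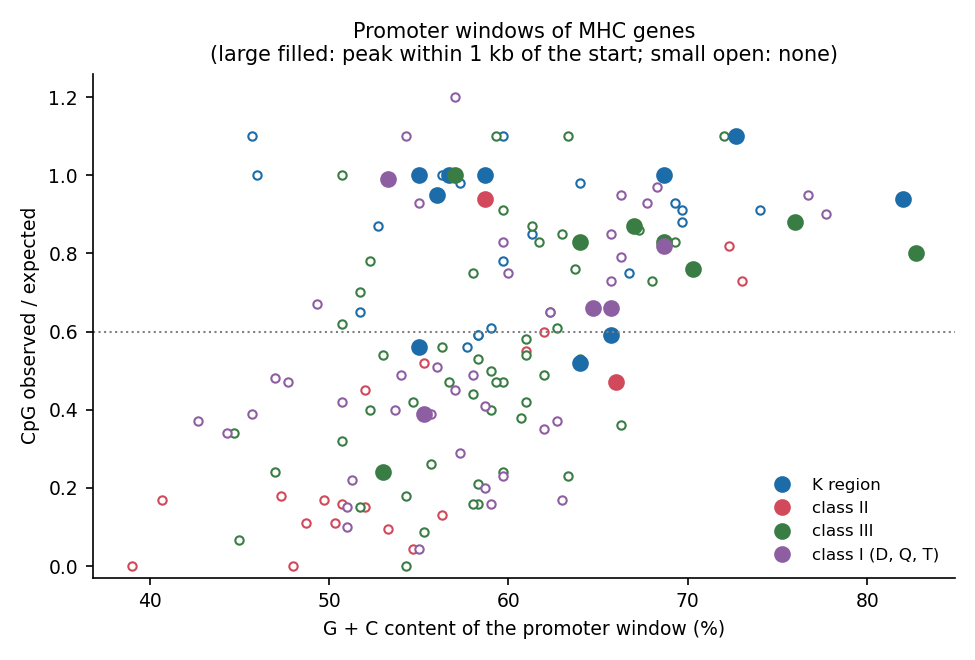
Ratio of observed to expected CpG (vertical axis, dotted line at 0.6) against G + C content in percent (horizontal axis) for the promoter windows of MHC members, coloured by subregion, with large filled circles for windows with a Tle3 peak within 1 kb of the start. Of the 25 filled circles 19 lie above the line, and most class II windows lie near the bottom left without a peak.

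Short motifs of factors known to recruit Groucho proteins, and of other factors, were counted in the promoter windows. Both strands of the 300 bases were searched, with overlaps between motifs allowed. The RUNX motif TGTGGT was in 3 of 25 windows with a peak (12.0%), 8.59% of those without and 14.7% of all windows. The TCF/LEF motif CTTTGA was in 8.0%, 11.7% and 14.4%. The HES motif CACGNG was in 40.0%, 27.3% and 31.7%, and the ETS motif CCGGAA in 28.0%, 21.1% and 18.9%. In the stretch around the MHC, windows with and without a peak held the HES motif in 55.0% and 30.1%, the ETS motif in 33.3% and 17.7%, the RUNX motif in 18.3% and 15.5% and the TCF/LEF motif in 5.0% and 13.8%. The CCAAT box, an element of class I and class II promoters, was in 4 of 25 windows with a peak, against 45.3% of those without and 38.5% of all. In the stretch around the window CCAAT was in 33.3% with a peak and 46.2% without. The interferon response motif, counted only in a strict form of 10 bases, was in 4.0%, 3.91% and 3.38%. Among the listed class I genes it was in H2-T23 and H2-T22, and in the same subregion also in Gm6034 and Gm11127. Variants of this form were not searched. The lack of a match in the other class I promoters searched therefore does not show that they lack an interferon response element. The HES and ETS motifs contain a CG dinucleotide, and windows with a peak had a higher median CpG ratio than those without. The part of base composition in the motif shares was not tested. A match is a run of letters and not a bound site.

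At the borders of the window the nearest peaks were well clear of the limits. The first peak inside, at Tapbp, scored 55.0 and lay 106.6 kb from the edge, and the last outside before it scored 51.33 at 127.8 kb. The last peak inside scored 54.68 at 165.9 kb from the far edge, and the first beyond it scored 95.51 at 168.3 kb.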

How the data were processed

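One list of called peaks was used. Reads were aligned to mm9 with Bowtie2 and peaks called with MACS 1.4, per the submitters' processing notes. Further settings were not given in the sources used here, including duplicate removal. The labels' protocols give 18 to 21 PCR cycles. The score deposited by the authors is that of MACS, and served only to describe, rank and filter peaks. Starts were converted to positions counted from 1.

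Gene names, spans and promoters came from RefSeq tables of GRCm38.p6. Peaks were related to genes by subtracting 136.95 kb from the midpoint. A gene had a peak at its start where a midpoint lay within 1 kb of a promoter entry (115 members) or, without one, of either end (20 members). Members lay in the window by their midpoint. The stretch for comparison ran between the outermost 4 Mb bins of chromosome 17 with at least 4 matches and 3 times those at offsets 20 kb away, so it was set with these matches in view. Class I promoters were aligned globally (match 1, mismatch -1, gap -2 and -0.5). Intervals are 95% Clopper-Pearson. Named genes are members with a peak at a start, those nearest to the 10 highest peaks, and 9 lists. The members and lists were chosen with earlier results of these data known. The offset search was tested on simulated peaks. Python 3.11.15, numpy 2.4.6, pandas 2.3.3, SciPy 1.17.1, Biopython 1.88 and matplotlib 3.10.9 were used.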

Additional observations from a re-analysis of the deposited data

How the results depend on the processing

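The MHC window held 41 peaks and 22 members with a peak at a start. With a score of at least 100 there were 8 peaks (median score 121) and 6 members, or 4.44%, against 2.88% of genes in the stretch around and 3.47% there without receptor genes. By subregion these were 4 in the K region, 0 in class II, 1 in class III and 1 in the class I D, Q and T region, so every subregion count fell by more than 1.5 times. Within 5 kb of a start the members with a peak rose to 38 (28.1%, stretch 15.3%, or 18.4% without receptor genes), with 3 in class II, 16 in class III and 9 in the class I D, Q and T region, and 82.9% of midpoints lay within 5 kb of a gene end, against 53.7% within 1 kb. With no offset 6 members (4.44%) had a peak, with 0 in the K region and 1 in class III, but 1 in class II and 4 in the class I D, Q and T region, against 1 and 5 at the offset used, so those counts lie close to what a wrong offset gives. With 20 kb added there were 5 (3.7%), with 1, 2, 2 and 0 in the K region, class II, class III and the class I D, Q and T region, and with 20 kb subtracted 7 (5.19%), with 2 each in the K region, class III and the class I D, Q and T region. Merging within 1 kb, 500 bp in place of 1 kb, any base of the peak in place of its midpoint, the offset from outside the window, members with a promoter entry alone (added after seeing the data) and whole or partial overlap with the window left the counts within 1.5 times.

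No paired analysis was possible because each antibody had a single library. The list has no read totals, so weaker sites below the score of 50 cannot be counted.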
